A study of Mus musculus with 9 samples.

Results

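The 35 genes described here encode the enzymes and carriers with which liver makes urea and breaks down amino acids. They were picked by symbol from the 54532 genes of the deposited count table, all 35 were found on a single row, and all 35 passed the filter on low counts that left 14025 genes for testing. They were read in 8 routes: the urea cycle (8 genes), glutamate and transamination (4), tyrosine (4), tryptophan (4), histidine (4), serine (2), methionine (5), and a last set of 4 genes of lysine, proline, glyoxylate and phosphoethanolamine breakdown.

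Amino acids that are not built into protein are broken down mainly in hepatocytes, which pass the carbon to glucose, ketone or energy metabolism and the nitrogen to ammonia or glutamate. The urea cycle joins ammonia, bicarbonate and the nitrogen of aspartate into urea for excretion. In liver this cycle and several of the breakdown routes are strongest in the hepatocytes around the portal veins, and many of the enzymes are induced by fasting, glucagon, glucocorticoids or a protein-rich diet.

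RNA was sequenced from whole liver of C57BL/6 WT mice, in 3 groups of 3 livers. The old Fabp4 shRNA mice were males injected at 14 months of age with AAV9-shRNA-Fabp4, an adeno-associated virus carrying a short hairpin RNA against the fatty acid carrier Fabp4, through the tail vein and in situ into the sWAT, and were 20 months old. The old control mice were males of the same age that received AAV9-shRNA-Neg by the same routes. The young mice were 8 weeks old and no injection is described for them, so age and injection cannot be told apart in the comparisons with young liver. The labels name liver as the tissue, while the RNA extraction text names NRVMs.

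Total counts were 14243344 to 17125440 per library, so 3 counts, the floor of detection, stood for 0.175 to 0.211 CPM (counts scaled to library size). Albumin took 5.34% to 10.4% of the counts of a library, mitochondrially encoded genes 4.15% to 14.5%, and the 35 genes together 2.42% to 3.75%. The targeted Fabp4 was at 11.2, 3.81 and 7.58 CPM in the livers labelled old Fabp4 shRNA and at 7.21, 13.6 and 10.9 CPM in old control livers, with overlapping groups and a log2 fold change of -0.49 ± 1.16 (SE, adjusted p = 0.960, edgeR), so a lower Fabp4 RNA in the liver was not detectable. One young count column, named Y2, matches the title of no young sample. It is called the unnumbered young liver here. The FPKM column of the same name holds values from other reads, and no label says whether they come from the same mouse. Fits with reads recovered from that FPKM column may thus hold another liver. The 10 skeletal muscle genes summed to 81.7 CPM in old Fabp4 shRNA liver 3 and to 3737 CPM in the unnumbered young liver, against 2.88 CPM or less in the other libraries.

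Unless said otherwise, values are CPM with TMM scaling (edgeR's trimmed mean of M values), given for old Fabp4 shRNA livers 1, 3 and 6, then old control livers 1, 2 and 5, then young liver 1, the unnumbered young liver and young liver 5. Fold changes are log2 values of edgeR's quasi-likelihood test ± SE over 3 livers a group, with p-values adjusted over all 14025 genes (Benjamini-Hochberg), and a gene was called at an adjusted p under 0.05. Since whole liver was sequenced, fewer cells of a type and less RNA per cell cannot be told apart.

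Levels were compared between genes only per length, in the authors' FPKM, and within the old control livers (lowest to highest of 3 livers in parentheses). Mat1a, which makes the methyl donor S-adenosylmethionine, averaged 1458 FPKM (970.1 to 1886). Bhmt, which returns a methyl group from betaine to homocysteine, averaged 1300.0 FPKM (936 to 1866). The arginase Arg1 averaged 905 FPKM (637 to 1169), and its neighbours in that order, Ass1 at 771 FPKM (700.2 to 829) and Hpd at 763 FPKM (663 to 812), lay within the spread of its livers. At the other end were Etnppl at 9.40 FPKM (5.89 to 14.9), Prodh at 14.1 FPKM (11.9 to 18.0), Sdsl at 17.9 FPKM (16.3 to 20.3) and Nags at 20.7 FPKM (19.9 to 21.2), and each overlapped the gene named before it. The cycle's first enzyme Cps1 averaged 325 FPKM (195 to 429), and the next enzyme Otc 85.0 FPKM (62.3 to 102).

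The first question was how the genes differ in old mice given the control virus from young mice. The 35 genes leaned to lower levels in old control liver, but none passed the test. The log2 fold change was negative for 32 of the 35, against 48.9% of all tested genes, and positive for 3, against 51.1%. The median was -0.37, against 0.01 for all tested genes. Among the 3845 tested genes at or above the mean level of the lowest of the 35, 59.8% were lower and the median was -0.08. None of the 35 was called in either direction, where edgeR called 0.0357% of all tested genes, and their lowest adjusted p was 0.290. Those with an unadjusted p under 0.05 numbered 9 lower and 0 higher, against 4.07% and 6.42% of all tested genes (10.5% in either direction). In 8 genes every old control liver lay below every young liver, which 8.26% of all tested genes did. In 0 genes every old control liver lay above every young liver, against 8.89% of all tested genes.

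Etnppl, which breaks down phosphoethanolamine, and Sds, serine dehydratase, had the lowest fold changes of the 35 genes in this comparison. Etnppl (ENSMUSG00000019232, GRCm38 chromosome 3, 130617448 to 130637521, plus strand) stood at 71.4, 124 and 123 CPM in old Fabp4 shRNA livers, 51.9, 62.9 and 129 CPM in old control livers and 302, 369 and 116 CPM in young livers. Its log2 fold change in old control against young was -1.69 ± 0.46 (adjusted p = 0.290, edgeR), and old control liver 5 overlapped young liver 5. Sds (ENSMUSG00000029597, GRCm38 chromosome 5, 120476526 to 120483932, plus strand) stood at 83.5, 52.5 and 99.0 CPM in old Fabp4 shRNA livers, 119.6, 81.1 and 122 CPM in old control livers and 393, 385 and 108 CPM in young livers, and had a log2 fold change of -1.46 ± 0.43 (adjusted p = 0.320, edgeR). As with Etnppl, young liver 5 was within the range of the old control livers, while the other young livers were above them. DESeq2 called both genes, with adjusted p-values of 0.0130 for Etnppl and 0.0353 for Sds, where it called 168 of the 13980 genes to which it gave an adjusted p, or 1.2%. Without the unnumbered young liver, Etnppl had -1.39 ± 0.48 (adjusted p = 0.382, edgeR) and Sds -1.26 ± 0.46 (0.403). With reads recovered from the FPKM column named Y2 they had -1.35 ± 0.42 and -1.17 ± 0.41. Sds shares exon sequence on the opposite strand with Plbd2 and Gm15690, and the sources used here do not give the strand setting of the counting. The log2 fold changes were -0.34 ± 0.25 for Plbd2 and -0.74 ± 0.44 for Gm15690. The paralogue of Sds, Sdsl, was at 26.1, 31.4 and 26.4 CPM in old control livers and 34.2, 49.9 and 20.3 CPM in young livers, with overlapping groups.

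The promoter of Etnppl is shown because it had the smallest p of the 35 genes in this comparison. The sequence is RefSeq's on build GRCm38.p6, from 250 bases before to 50 bases after the gene's start, 5′ to 3′. It has no capitals because none of the 3 motifs searched, described with the promoters of Otc and Ass1, is in this window.
Etnppl, chr3:130617198-130617497, plus strand: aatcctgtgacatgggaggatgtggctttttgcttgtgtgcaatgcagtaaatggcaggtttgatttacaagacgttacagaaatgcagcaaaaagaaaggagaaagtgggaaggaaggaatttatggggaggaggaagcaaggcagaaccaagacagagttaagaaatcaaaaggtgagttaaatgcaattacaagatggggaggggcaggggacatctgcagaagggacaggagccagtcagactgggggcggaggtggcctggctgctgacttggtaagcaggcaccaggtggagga

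Among the glutamate and transamination genes, Gpt and Gls2 did not overlap between old control and young liver. Gpt, alanine aminotransferase, stood at 335, 201 and 179 CPM in old Fabp4 shRNA livers, 194, 148 and 138 CPM in old control livers and 351, 237 and 260.1 CPM in young livers. Gls2, the liver glutaminase that frees ammonia from glutamine, stood at 206, 267 and 211 CPM in old Fabp4 shRNA livers, 274, 294 and 307 CPM in old control livers and 631, 460.1 and 345 CPM in young livers. All old control livers were thus below all young livers for both genes, at log2 fold changes of -0.82 ± 0.28 for Gpt (adjusted p = 0.366, edgeR) and -0.72 ± 0.25 for Gls2 (0.378). Without young liver 1, the highest for Gls2, its value was -0.47 ± 0.25. Gls2 shares exon sequence on the opposite strand with Spryd4, whose log2 fold change was -0.28 ± 0.21 and whose counts over all libraries were 3836, against 46089 for Gls2. Got1, an aspartate aminotransferase, was at 224, 219 and 382 CPM in old control livers and at 385, 911 and 323 CPM in young livers, where the unnumbered liver was the highest. The log2 fold change of Got1 was -0.97 ± 0.48, or -0.39 ± 0.41 without that liver and -0.43 ± 0.35 with reads recovered from the FPKM column named Y2. Glud1, glutamate dehydrogenase, was at 703 to 929 CPM in old control livers and 785 to 840.4 CPM in young livers and overlapped.

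Of the tyrosine genes, Hpd and Hgd, which act on neighbouring steps below the transaminase Tat, did not overlap between old control and young liver. Hpd stood at 2347, 1797 and 1726 CPM in old Fabp4 shRNA livers, 1845, 1785 and 1472 CPM in old control livers and 3727, 2402 and 2402 CPM in young livers. Hgd stood at 498, 510.2 and 552 CPM in old Fabp4 shRNA livers, 355, 389 and 408 CPM in old control livers and 533, 729 and 494 CPM in young livers. Each old control liver was below each young liver for both, with log2 fold changes of -0.74 ± 0.27 for Hpd (adjusted p = 0.385, edgeR) and -0.61 ± 0.22 for Hgd (0.389). Fah, which makes the last cut of the route, was at 567 to 649 CPM in old control livers and 558 to 847 CPM in young livers, and overlapped. Tat was at 1271, 1909 and 927 CPM in old control livers and at 1409.7, 3252 and 662 CPM in young livers, and its log2 fold change of -0.37 ± 0.47 turned to 0.37 ± 0.38 without the unnumbered young liver.

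The urea cycle genes were all lower on average in old control than in young liver, with 8 of 8 negative fold changes from -0.84 to -0.18 and a median of -0.36; without old control liver 1 it was 7 of 8, with Cps1 at 0.08. Cps1 was also at -0.03 ± 0.34 without the unnumbered young liver. Ass1, argininosuccinate synthase (ENSMUSG00000076441, GRCm38 chromosome 2, 31470207 to 31520672, plus strand), stood at 1775, 1491 and 1503 CPM in old Fabp4 shRNA livers, 1804, 2067 and 1973 CPM in old control livers and 5028, 3418 and 1997 CPM in young livers. Young liver 5 overlapped the old control livers, which lay close together, and the log2 fold change was -0.84 ± 0.31 (adjusted p = 0.395, edgeR). It was -0.48 ± 0.30 without young liver 1. Asl, which splits argininosuccinate, and Nags, which makes the activator of Cps1, were the 2 genes of the cycle that did not overlap. Asl was at 808, 1028 and 1209 CPM in old control livers and 1873, 1266 and 1389 CPM in young livers. Nags was at 63.8, 62.0 and 58.8 CPM in old control livers and 83.4, 75.2 and 74.7 CPM in young livers. Their log2 fold changes were -0.57 ± 0.29 and -0.34 ± 0.19. Cps1, Otc, Arg1, the ornithine carrier Slc25a15 and the aspartate and glutamate carrier Slc25a13 overlapped between these groups. Otc overlapped through the unnumbered young liver alone. Its log2 fold change was -0.49 ± 0.26, or -0.64 ± 0.29 without that liver and -0.78 ± 0.26 with reads recovered from the FPKM column named Y2.

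Of the other routes, Hal, which takes the amino group from histidine and lies beside Amdhd1 on chromosome 10, stood at 206, 286 and 260.0 CPM in old Fabp4 shRNA livers, 269, 299.9 and 396 CPM in old control livers and 785, 544 and 331 CPM in young livers. Young liver 5 lay among the old control livers, and the log2 fold change of old control against young was -0.78 ± 0.30 (adjusted p = 0.409, edgeR), or -0.45 ± 0.30 without young liver 1. Uroc1, Amdhd1 and Ftcd, which carry histidine's carbon on to glutamate and folate, had values of -0.33 to -0.13, of which those of Uroc1 and Ftcd turned positive in 2 and 1 of the 20 fits made, and all overlapped. Among the tryptophan genes, Tdo2, which opens the ring of tryptophan, had the smallest p, at -0.65 ± 0.37 (adjusted p = 0.554, edgeR), from 552, 1034 and 1016 CPM in old control livers and 1032, 2171 and 865 CPM in young livers. Without the unnumbered young liver it was -0.16 ± 0.33. Kmo and Haao had negative values, Kynu a positive one of 0.21 ± 0.29, and all 4 genes of this route overlapped. Haao overlapped through the unnumbered young liver alone. Its value was -0.39 ± 0.26, or -0.66 ± 0.24 without that liver (adjusted p = 0.382, edgeR). With reads recovered from the FPKM column named Y2 it was -0.63 ± 0.20 (adjusted p = 0.209, edgeR). Among the methionine genes, Gnmt, which uses up S-adenosylmethionine by methylating glycine, had -0.63 ± 0.27 (adjusted p = 0.452, edgeR) and did not overlap. With reads recovered from the FPKM column named Y2, its value was -0.17 ± 0.31. Mat1a and Cth, which makes cysteine from cystathionine, had negative values, Bhmt and Cbs, which makes cystathionine, had positive values of 0.53 ± 0.65 and 0.01 ± 0.31, and these 4 overlapped. Bhmt was at 0.06 ± 0.53 without the unnumbered young liver and negative in 1 of the 20 fits, and Cbs was negative in 6 of them. Agxt, the peroxisomal enzyme that detoxifies glyoxylate, did not overlap, at 299, 428 and 444 CPM in old control livers and 485, 462 and 446 CPM in young livers, although the closest livers differed by little. Prodh, which starts proline breakdown, and Aass, which starts lysine breakdown, overlapped.

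**Figure D1:**
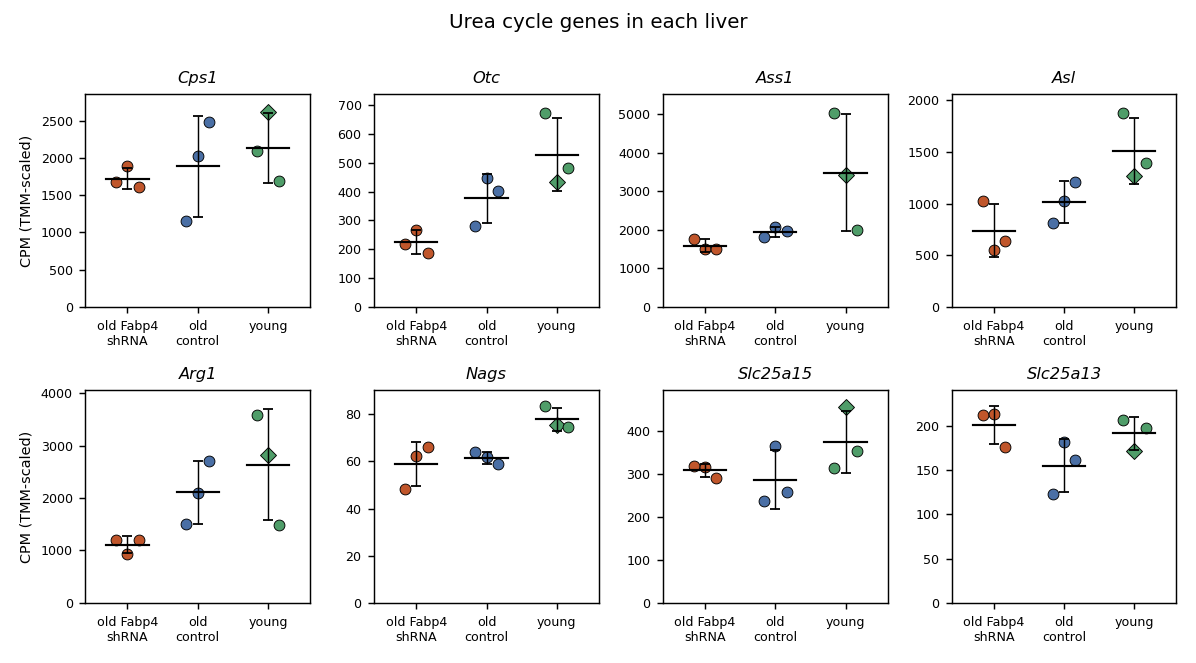
TMM-scaled CPM of the 8 urea cycle genes in each liver, with old Fabp4 shRNA left of old control and young; points are livers, diamonds the unnumbered young liver, horizontal bars group means and vertical bars ± SD (n = 3). Otc and Arg1 are lowest in the old Fabp4 shRNA livers, and young liver 1 is the highest of 9 for Otc, Ass1, Asl, Arg1 and Nags.

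The second question was how the genes differ between the hairpin against Fabp4 and the control hairpin in mice of the same age. No gene of the 35 passed the test. Without overlap, Otc, Arg1, Ass1, Bhmt, Gls2 and Amdhd1 had lower values and Gnmt, Hgd and Tdo2 higher values in old Fabp4 shRNA liver; the count of higher genes is near the share over all tested genes. Of the 35 genes, 24 had a negative and 11 a positive log2 fold change, against 51.4% and 48.6% of all tested genes, and the median was -0.25, against -0.01 for all tested genes. None was called, as was 0% of all tested genes (0 of 14025; 6.75% had an unadjusted p under 0.05, and DESeq2 called 7 genes, or 0.0501%, none of them among the 35). The lowest adjusted p of the 35 was 0.728. With an unadjusted p under 0.05 stood 1 higher gene and 3 lower ones, against 3.27% and 3.48% of all tested genes. Groups did not overlap for 3 genes with higher values, against 6.02% of all tested genes, and for 6 genes with lower values, against 5.67%.

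Within the urea cycle, Otc, which makes citrulline (ENSMUSG00000031173, GRCm38 chromosome X, 10252305 to 10321024, plus strand), stood at 217, 268 and 187 CPM in old Fabp4 shRNA livers, 282, 448 and 400.5 CPM in old control livers and 672, 432 and 481 CPM in young livers. Arg1, which releases urea from arginine (ENSMUSG00000019987, GRCm38 chromosome 10, 24915221 to 24927484, minus strand), stood at 1203, 931 and 1202 CPM in old Fabp4 shRNA livers, 1514, 2091 and 2716 CPM in old control livers and 3586, 2824 and 1489.5 CPM in young livers. For both genes all old Fabp4 shRNA livers were below all old control livers, with log2 fold changes of -0.75 ± 0.26 for Otc and -0.92 ± 0.33 for Arg1, and an adjusted p of 0.728 for each (edgeR). Ass1 did not overlap either, although its log2 fold change was small against its error, at -0.29 ± 0.31. Asl, Cps1 and Nags had negative values of -0.46 to -0.07, and Slc25a15 and Slc25a13 positive ones of 0.10 and 0.37, all with overlapping groups. The hepatocyte markers were lower in the same livers: 8 of 9 had a negative fold change with a median of -0.45, and the sum of the 9 was 75034 to 103534 CPM in old Fabp4 shRNA livers and 106894 to 155011 CPM in old control livers. The part of this in the values of Otc and Arg1 was not tested.

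The promoters of Otc, the urea cycle gene with the smallest p here, and of Ass1 are shown because each holds a motif searched for; both were chosen after their values were seen. A RefSeq window was found for 25 of the 35 genes. Both strands were searched in any position for TGACG (the core of a cAMP response element), CACGTG (an E-box) and TTATGNAA. The last is a loosened D-box pattern, in which N is any base. A TGACG can overlap a CACGTG by the letters TG. TGACG was in windows of 4 of the 25 genes, CACGTG of 4 and TTATGNAA of 1, against 20.8%, 7.15% and 3.38% of all 32851 windows. The capitals mark TTATGAAA, a match to the loosened pattern, in Otc, 143 bases before the start. In Ass1 they mark CACGTG, 36 bases before the start of RefSeq's transcript. A match is a description of the letters only, and whether the one in Otc acts as a D-box was not tested.
Otc, chrX:10252055-10252354, plus strand: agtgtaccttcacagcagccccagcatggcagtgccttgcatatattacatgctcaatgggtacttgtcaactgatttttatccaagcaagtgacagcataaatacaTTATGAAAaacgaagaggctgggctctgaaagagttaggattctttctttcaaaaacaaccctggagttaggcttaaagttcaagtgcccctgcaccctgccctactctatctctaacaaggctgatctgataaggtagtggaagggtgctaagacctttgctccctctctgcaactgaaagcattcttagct
Ass1, chr2:31470020-31470319, plus strand: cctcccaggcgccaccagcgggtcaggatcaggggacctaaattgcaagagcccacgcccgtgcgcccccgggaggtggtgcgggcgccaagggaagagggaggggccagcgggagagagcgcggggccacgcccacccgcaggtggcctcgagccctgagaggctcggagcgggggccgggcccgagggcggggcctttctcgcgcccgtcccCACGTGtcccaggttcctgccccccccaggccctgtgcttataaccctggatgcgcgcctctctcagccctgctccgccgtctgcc

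The methionine genes held the largest opposite differences. Gnmt (ENSMUSG00000002769, GRCm38 chromosome 17, 46725664 to 46729168, minus strand) stood at 1336, 1074 and 800.0 CPM in old Fabp4 shRNA livers, 695, 581 and 488 CPM in old control livers and 712, 1143 and 867 CPM in young livers. Bhmt (ENSMUSG00000074768, GRCm38 chromosome 13, 93616675 to 93637961, minus strand) stood at 3465, 3321 and 824 CPM in old Fabp4 shRNA livers, 5752, 11104 and 6590.1 CPM in old control livers and 8530.2, 1453 and 6201 CPM in young livers. Every old Fabp4 shRNA liver was above every old control liver for Gnmt and below every one for Bhmt. Both genes overlapped young liver, Bhmt through the unnumbered young liver alone. Against old control the log2 fold changes were 0.86 ± 0.27 for Gnmt and -1.62 ± 0.67 for Bhmt, with an adjusted p of 0.728 for each (edgeR). Against young liver Bhmt had -1.09 ± 0.66, or -1.54 ± 0.52 without the unnumbered young liver (adjusted p = 0.286, edgeR). With the reads recovered from that liver's FPKM column it had -1.38 ± 0.47 (0.168). Bhmt varied most of the 35 genes, 13.5-fold between the highest and the lowest of the 9 livers, 5.87-fold among the young livers and 4.21-fold among the old Fabp4 shRNA livers. Mat1a, Cbs and Cth overlapped between the old groups, at -0.11 ± 0.28, 0.03 ± 0.31 and -0.41 ± 0.31.

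Of the remaining routes, Hgd and Tdo2 were higher without overlap, with log2 fold changes of 0.44 ± 0.22 (adjusted p = 0.741, edgeR) and 0.62 ± 0.37 (0.789). Tdo2 was at 1078, 1661 and 1252 CPM in old Fabp4 shRNA livers and 552, 1034 and 1016 CPM in old control livers, so that its lowest old Fabp4 shRNA liver was just above its highest old control liver. Gpt was higher with an overlap, at 0.58 ± 0.28 (adjusted p = 0.741, edgeR), and its old Fabp4 shRNA liver 1 was the highest of the old livers. All 4 histidine genes had negative values, between -0.40 and -0.34, and all had the same sign in each of the 19 fits made for this comparison. Amdhd1, which hydrolyses imidazolonepropionate, was the 1 histidine gene without overlap, at 177, 204 and 169 CPM in old Fabp4 shRNA livers and 209, 265 and 254 CPM in old control livers, with -0.40 ± 0.25 (adjusted p = 0.796, edgeR). Gls2 did not overlap, at -0.35 ± 0.25. Sds had -0.46 ± 0.43 (adjusted p = 0.889, edgeR) and Aass -0.53 ± 0.32 (0.789), and Sds, Aass, Prodh, Agxt and Etnppl overlapped. Prodh was at 309 CPM in old Fabp4 shRNA liver 1 and at 91.9 and 99.5 CPM in livers 3 and 6, beside 149.6, 95.7 and 102 CPM in old control livers.

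**Figure D2:**
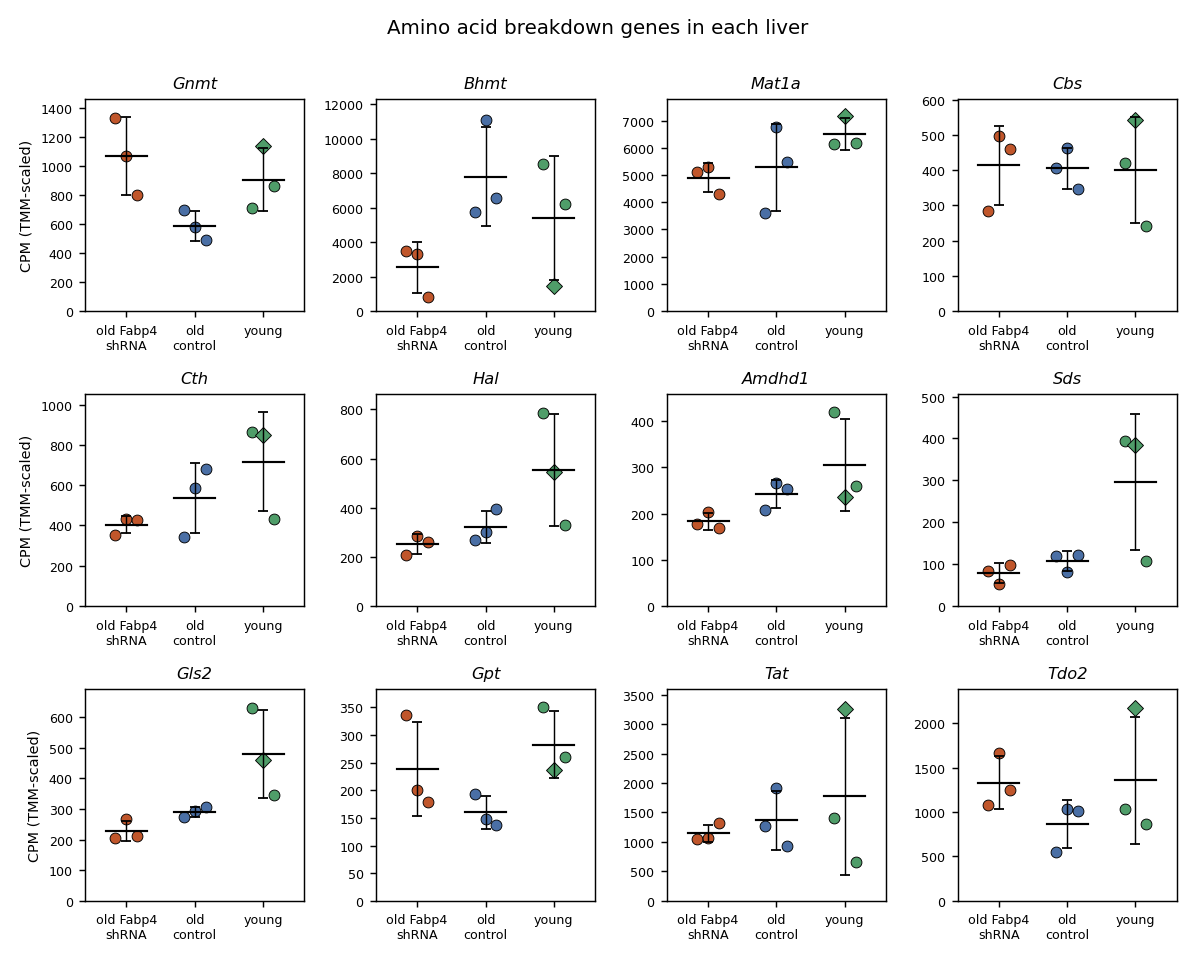
TMM-scaled CPM of 12 genes of the breakdown routes in each liver, drawn as in the plot of the urea cycle genes. Gnmt lies higher and Bhmt lower in the old Fabp4 shRNA livers than in the old control livers, and for Sds young liver 1 and the unnumbered young liver stand above all 6 old livers.

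Old Fabp4 shRNA livers were also compared with young livers. This comparison shares the young livers with the first and the old Fabp4 shRNA livers with the second, so its values are no independent evidence of either. Here 31 of the 35 genes had a negative fold change, against 47.8% of all tested genes, and 4 a positive one, against 52.2%, with a median of -0.53, against 0.02 for all tested genes. edgeR called none of the 35, where it called 0.057% of all tested genes (0.0499% higher and 0.00713% lower), and the lowest adjusted p was 0.226. An unadjusted p under 0.05 was found for 14 lower genes and 0 higher ones, against 4.5% and 4.43% of all tested genes (8.93% in either direction). In 15 genes every old Fabp4 shRNA liver lay below every young liver, which 6.67% of all tested genes did, and in 0 genes above, which 6.79% did. DESeq2 called 7 of the 35 as lower (Otc, Ass1, Asl, Arg1, Gls2, Hal and Sds) among 124 genes in all, which is 0.887% of those it tested.

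Of the 35 genes, those with the smallest p came from the urea cycle, histidine, serine and glutamine steps, with the values per liver already given. Otc had a log2 fold change of -1.24 ± 0.26 (adjusted p = 0.226, edgeR), and the highest old Fabp4 shRNA liver, at 268 CPM, lay under the lowest young liver, at 432 CPM. Its adjusted p was 0.0025 in DESeq2, 0.0059 without the filter on counts, where 0.364% of all genes tested were called, and 0.0356 with the recovered reads, where 0.445% were. Arg1 had -1.24 ± 0.34 (adjusted p = 0.344, edgeR) and 0.0288 in DESeq2. Ass1 had -1.13 ± 0.31 (adjusted p = 0.366, edgeR) and 0.0293 in DESeq2. For both the lowest young liver, number 5, was closest to the old livers, and without young liver 1, Otc, Arg1 and Ass1 each had an adjusted p of 0.719 or more. Asl was at 1027, 548 and 641 CPM in old Fabp4 shRNA livers, below all young livers, at -1.03 ± 0.29. Its adjusted p was 0.380 in edgeR and 0.0414 in DESeq2. Nags did not overlap either, with -0.40 ± 0.19, while Cps1, Slc25a15 and Slc25a13 had values of -0.31, -0.28 and 0.07 and overlapped.

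Gls2 had a log2 fold change of -1.07 ± 0.25 against young liver (adjusted p = 0.288, edgeR) and 0.0092 in DESeq2. Hal had -1.14 ± 0.31 (adjusted p = 0.343, edgeR) and 0.0411 in DESeq2, and neither overlapped. Sds had -1.91 ± 0.44 (adjusted p = 0.303, edgeR) and 0.0016 in DESeq2; its old Fabp4 shRNA livers were below young liver 5 by little and below the other young livers by far. Without young liver 5 it was the 1 gene of the 35 that edgeR called, at -2.31 ± 0.30 (adjusted p = 0.0413), among 0.0206% of all genes tested. Young liver 5 was the young liver nearest to the old ones, so leaving it out widened the difference. Without young liver 1, the lowest adjusted p of the 35 genes was 0.719 (edgeR). Etnppl had -1.31 ± 0.45 (adjusted p = 0.479, edgeR) and overlapped at 116 CPM of young liver 5. Cth, Haao and Fah, the genes with the smallest p of the methionine, tryptophan and tyrosine routes, had -0.83 ± 0.32 (adjusted p = 0.494, edgeR), -0.61 ± 0.26 (0.534) and -0.53 ± 0.24 (0.556). Cth did not overlap, but only by little, at 429.9 CPM in its highest old Fabp4 shRNA liver and 431.5 CPM in its lowest young liver. Haao and Fah each overlapped with the unnumbered young liver alone. Gnmt, Glud1, Cbs and Slc25a13 were the 4 genes with a positive value, the largest of them 0.24 ± 0.27 for Gnmt. Without the unnumbered young liver Gnmt was at 0.44 ± 0.29, Tdo2 and Tat turned positive, at 0.49 ± 0.34 and 0.14 ± 0.38, and Slc25a13 turned to -0.01 ± 0.25. With the recovered reads Gnmt was at 0.72.

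**Figure D3:**
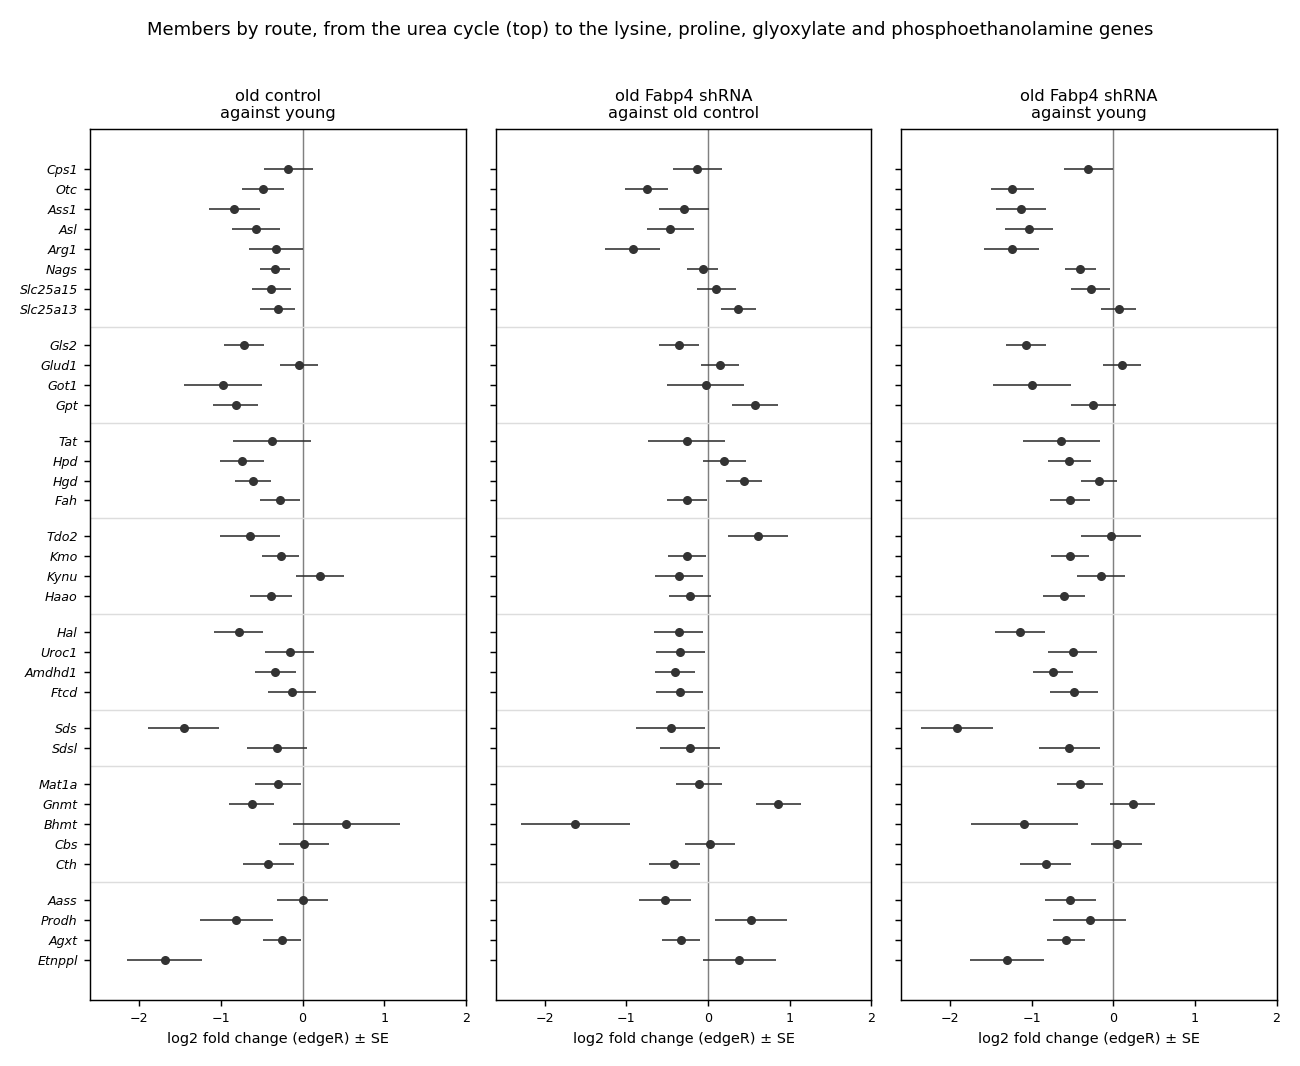
Log2 fold changes (edgeR, points) with SE (bars) of the 35 genes in the 3 comparisons, grouped by route from the urea cycle at the top. Most points lie left of 0 in both comparisons with young liver, with medians of -0.37 for old control and -0.53 for old Fabp4 shRNA, and lie on both sides of 0 in old Fabp4 shRNA against old control.

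Summed over a route, the urea cycle genes came to 6474, 5721 and 5674 CPM in old Fabp4 shRNA livers, 5988, 8262 and 9261 CPM in old control livers and 13856, 11262 and 7668 CPM in young livers. The old Fabp4 shRNA livers lay below all young livers, and old control liver 1 lay within the old Fabp4 shRNA range. The histidine genes came to 831 to 1219.6 CPM in old Fabp4 shRNA livers, 1303 to 1414 CPM in old control livers and 1423 to 2299 CPM in young livers, so that these 3 groups did not overlap. Old control and young liver were apart by little, at 1414 and 1423 CPM in their closest livers. Taken singly, none of the 4 histidine genes was apart between these groups. The sums were taken with TMM scaling only. The methionine sum followed Bhmt and Mat1a, its genes with the highest CPM, which is not scaled to gene length. It was 6796 to 10607 CPM in old Fabp4 shRNA livers, 10788 to 19492 CPM in old control livers and 11157 to 16654 CPM in young livers. Single livers stood out across routes. Young liver 1 was the highest of the 9 for 17 of the 35 genes and the unnumbered young liver for 10, while old control liver 1 was the lowest for 9, old Fabp4 shRNA liver 3 for 8 and old Fabp4 shRNA liver 6 for 7.

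The same sums were taken for markers of hepatocytes and their zones and for other genes that vary between livers. In old control against young liver, 5 of 9 hepatocyte markers were negative and 4 positive, from -0.37 to 0.46, with a median of -0.08. The 8 markers of periportal hepatocytes, of which Gls2 and Hal are among the 35 genes, were negative for 7 in old control against young, at a median of -0.66, and for 7, at a median of -0.36, in old Fabp4 shRNA against old control. The 10 markers of pericentral hepatocytes had 6 negative values in the first of these, with a median of -0.11, and 8 positive values in the second, with a median of 0.16. Of the nuclear genes of the respiratory chain, 20 of 20 had a negative fold change in old control against young, with a median of -0.45, and 13 of 20 a positive one in old Fabp4 shRNA against old control, with a median of 0.13. Among markers of other cells, those of neutrophils had 5 of 5 negative values in old Fabp4 shRNA against old control, with a median of -2.11, and their 6 genes summed to 5.85 to 14.9 CPM in old Fabp4 shRNA livers and 16.7 to 54.7 CPM in old control livers. Kupffer cell and macrophage markers had 9 of 9 negative values there, with a median of -1.05, and sums of 119 to 235 CPM in old Fabp4 shRNA livers and 198 to 668 CPM in old control livers. Endothelial markers had 10 of 10 positive values in old control against young, with a median of 0.74, and red blood cell genes 6 of 6 negative values, with a median of -1.76 and sums of 188 to 328 CPM in old control livers and 521 to 1026 CPM in young livers. The part of any of these lists in the values of the 35 genes was not tested. Pck1, the fasting-induced gene of glucose synthesis, was at 2899.7, 3943 and 4551 CPM in old Fabp4 shRNA livers, 5056, 5442 and 4615 CPM in old control livers and 5767, 5128 and 2425 CPM in young livers. It did not stand for the 10 genes of the fasting response, of which 8 were positive in old Fabp4 shRNA against young, with a median of 0.56, 5 in old Fabp4 shRNA against old control, and 8 in old control against young, with a median of 0.15. Dbp, a clock-driven factor that binds D-boxes, was at 53.5, 0.496 and 4.86 CPM in old Fabp4 shRNA livers, 0.581, 0.589 and 16.4 CPM in old control livers and 100.3, 32.4 and 90.1 CPM in young livers. The livers of a group thus differed widely in Dbp. Of the 15 clock output genes, 11 did not overlap between old control and young liver, 5 of them higher and 6 lower, against 8.89% and 8.26% of all tested genes. Between old Fabp4 shRNA and young liver, 1 was apart as higher and 1 as lower, against 6.79% and 6.67%. Noct, a clock-driven gene, was called as higher against young liver both in old Fabp4 shRNA livers, at 2.83 ± 0.40 (adjusted p = 0.0287, edgeR), and in old control livers, at 3.19 ± 0.40 (adjusted p = 0.0121, edgeR). The part of the fasting and clock lists in the values of the 35 genes was not tested.

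**Figure D4:**
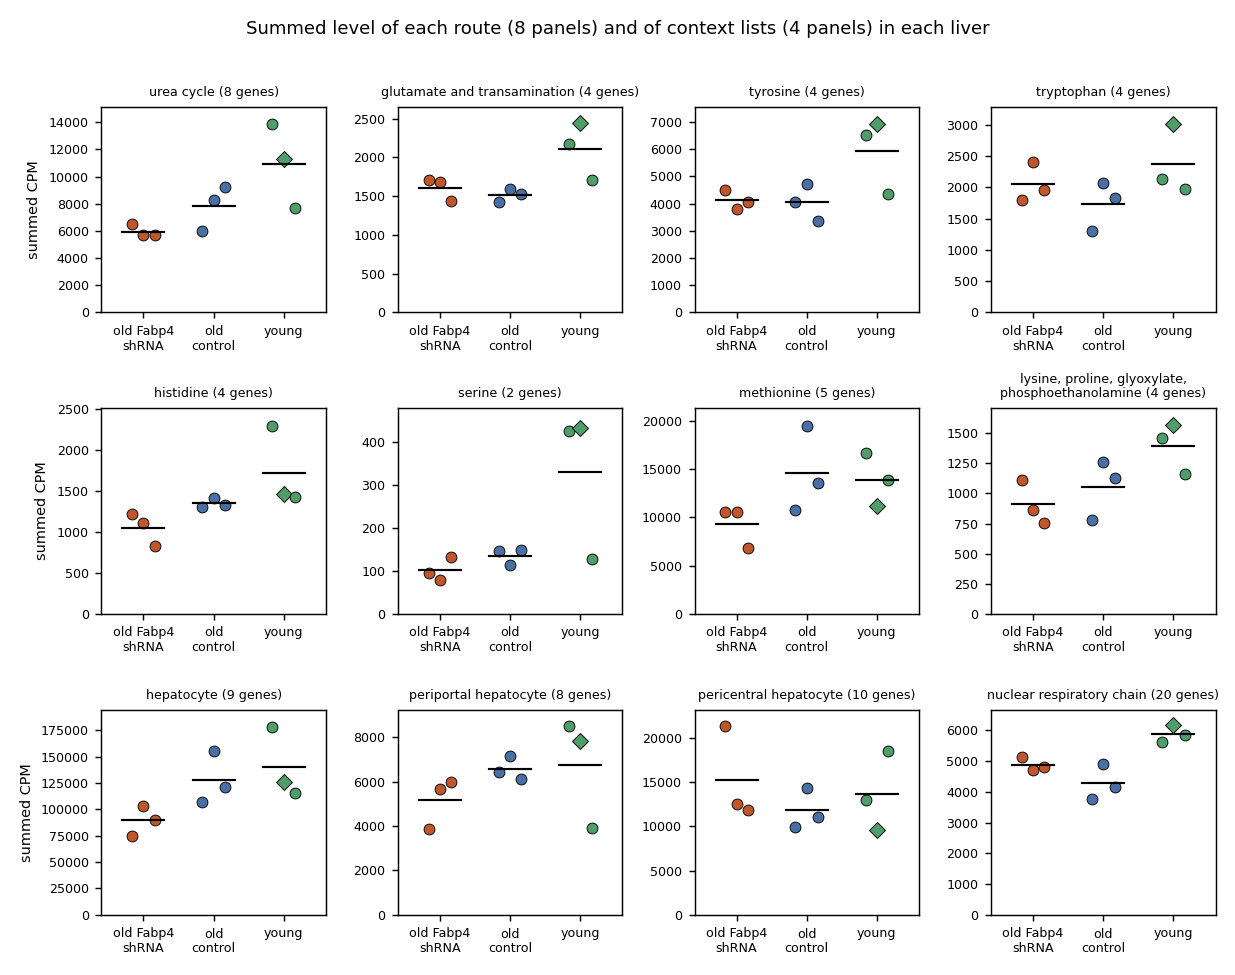
Summed TMM-scaled CPM of the genes of each of the 8 routes and of 4 further lists in each liver; points are livers, diamonds the unnumbered young liver and bars group means. The histidine sums are apart in all 3 groups, old control and young by little, and the hepatocyte sums of the old Fabp4 shRNA livers, 75034 to 103534 CPM, are below all others.

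The rest of the pathway was read from a list of 100 further genes of amino acid breakdown, nitrogen handling and their regulators, of which 95 were tested and none was called by edgeR in any comparison with the filter on counts. In old control against young, 75 of the 95 were lower and 20 higher, with a median of -0.27, and 11 lower and 0 higher had an unadjusted p under 0.05. The smallest p among the 95 in this comparison belonged to Car5a, the mitochondrial carbonic anhydrase that supplies bicarbonate to Cps1. Car5a was at 9.94, 10.2 and 5.68 CPM in old control livers and 24.0, 15.0 and 17.6 CPM in young livers, with -1.13 ± 0.32 (adjusted p = 0.296, edgeR). Its groups did not overlap, and it was called at 0.0204 without the filter on counts. Hoga1, which makes glyoxylate from hydroxyproline, had -0.66 ± 0.24, the kynurenine aminotransferase Kyat1 -0.69 ± 0.25, the sulphurtransferase Mpst -0.49 ± 0.20, Gch1, which starts the synthesis of tetrahydrobiopterin, -0.46 ± 0.19, and Klf15, a transcription factor that controls amino acid breakdown genes, -0.67 ± 0.29 (adjusted p-values of 0.385 to 0.443). All 20 branched-chain amino acid genes had a negative value, with a median of -0.29 and none at an unadjusted p under 0.05. Auh of the leucine route came closest, at -0.41 ± 0.21, while Hykk of the lysine list was higher, at 0.38 ± 0.22 (adjusted p-values of 0.501 and 0.554).

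In old Fabp4 shRNA against old control, 50 of these 95 genes were lower and 45 higher, with a median of -0.01, and 6 higher and 0 lower had an unadjusted p under 0.05. Glul, glutamine synthetase, which takes up the ammonia that the urea cycle leaves and is a marker of pericentral hepatocytes, was at 1945, 1027 and 1548 CPM in old Fabp4 shRNA livers and at 959, 938 and 778 CPM in old control livers, with 0.76 ± 0.34 (adjusted p = 0.728, edgeR). Its groups did not overlap. Pccb, a subunit of propionyl-CoA carboxylase, had 0.74 ± 0.24, the second S-adenosylmethionine synthase Mat2a 0.55 ± 0.20, serine racemase Srr 0.43 ± 0.19, the mitochondrial deacylase Sirt3 0.51 ± 0.20 and Gch1 0.36 ± 0.19. Dhtkd1 of the lysine route had -0.67 ± 0.32 and Acmsd of the kynurenine route -0.47 ± 0.33, and the adjusted p-values of all these were 0.728 to 0.831. Against young liver, 69 of the 95 were lower in old Fabp4 shRNA liver, with a median of -0.24, and 15 lower and 1 higher had an unadjusted p under 0.05. Hoga1 had -0.96 ± 0.24 there (adjusted p = 0.333 in edgeR and 0.0292 in DESeq2), Acmsd -1.27 ± 0.33 (0.343 in edgeR), Mat2a 0.60 ± 0.20 (0.461), Pipox, which breaks down pipecolate and sarcosine, -0.70 ± 0.26 (0.482), the glutamine carrier Slc38a3 -0.82 ± 0.30 (0.488), Auh -0.54 ± 0.21 (0.495) and Klf15 -0.70 ± 0.29 (0.513).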

How the data were processed

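Reads were aligned with HISAT2 to the mouse genome GRCm38.p6, per the submitters' processing notes. How reads were counted, and with which strand setting, is not given in the sources used here. In the table of counts that the authors deposited are unscaled reads per gene for 9 libraries. The deposited FPKM values are scaled to gene length and a library total, as their unit implies. That total was not the plain sum of the counts. Divided by this sum, and relative to young liver 1, where it was lowest, it reached 1.44 in old control liver 1. In 8 columns the FPKM were a fixed multiple per gene of the counts for 100% of 10483 genes. In the Y2 column this held for 0.229%. Scaling that FPKM column back gave whole reads (within 0.05) for 100% of 6585 values, 11805823 reads in all, with 226 genes not recovered.

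The test was edgeR 4.0.16 (R 4.3.3): filterByExpr, TMM (factors 0.825 to 1.15), a robust quasi-likelihood fit of 1 mean per group to all 9 libraries with 6 residual degrees of freedom, and two-sided tests. Alternatives were DESeq2 1.42.0 and its size factors, no scaling, no or a stricter filter (50 counts in 3 libraries), only the 6 libraries compared, limma 3.58.1 on log2(FPKM + 1 or + 0.1), the recovered reads, the replicate numbers as a block, and each library left out. The pipeline was tested on simulated data. The 35 genes and all lists were chosen with earlier results of these data known. Fold changes are printed for the 6 of the 35 genes with the smallest p per comparison, the smallest of each route, and the smallest of each further list; others named in passing were picked after their values were seen. One gene that this rule names is not reported here. The floor covers counting error only, while SEs and p-values measure the spread between livers. Gene positions are from GENCODE M21, in which 54409 of 54532 identifiers were found.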

Additional observations from a re-analysis of the deposited data

How the results depend on the processing

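No gene of the 35 changed to being called in old Fabp4 shRNA against old control under any alternative run, and their median was -0.31 to -0.14 when a library was left out. In old control against young, DESeq2 called 2 (Etnppl and Sds) of 168 genes called in all. In old Fabp4 shRNA against young, the number called was 5 without the filter on counts (Otc, Gls2, Hal, Arg1 and Ass1) of 94 in all, 7 with DESeq2 of 124, 1 with the recovered reads (Otc) of 62 and 0 to 1 when a library was left out. The medians were -0.55 to -0.27 in old control against young and -0.69 to -0.45 in old Fabp4 shRNA against young when a library was left out. Without scaling, the median of all tested genes moved to 0.16 in old control against young, 0.13 in old Fabp4 shRNA against old control and 0.31 in old Fabp4 shRNA against young, and the median of the 35 genes was -0.22 in the first of these, -0.082 in old Fabp4 shRNA against old control and -0.24 in the last, so that 28, 20 and 26 of them were lower; relative to all genes the medians were -0.38, -0.21 and -0.55. Over all fits, 25 genes in old control against young, 18 in old Fabp4 shRNA against old control and 25 in old Fabp4 shRNA against young were lower each time, and 9, 10 and 9 turned; the causes were not tested. At an unadjusted p under 0.05, leaving out young liver 1 left 4 genes in old control against young and 9 in old Fabp4 shRNA against young. Leaving out old control liver 2 or 5 left 2 each in old Fabp4 shRNA against old control, where no scaling gave 8 and the recovered reads 7; no scaling gave 8 in old Fabp4 shRNA against young. The replicate numbers 1 and 5 occur in old control and young liver, and their deviations correlated at 0.112 and 0.030 over genes. Such low values give no sign of a pairing, but cannot show that livers of the same number had no batch in common. With the replicate block on these 4 libraries the median was -0.45, the lowest adjusted p of the 35 was 0.050003 (edgeR), and 315 genes of all tested were called. No paired analysis was possible for the other comparisons because their groups share fewer than 2 replicate numbers. With 3 livers a group, an exact permutation of a single gene allows no p under 0.1.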
